A study of Mus musculus with 20 samples.

Results

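Expression of 10 genes of the inflammasome and of pyroptosis was followed in the cecum of 20 mice. The genes were Nlrp6, Nlrc4, Aim2, Pycard, Casp1, Casp4, Gsdmd, Gsdmc2, Gsdmc3, and Gsdmc4. They were chosen by name and found by their Ensembl identifiers among the 19887 genes of the count table, and all 10 had enough counts to be tested together with the other genes, 15348 in all. The C57BL/6 mice were 3 weeks old at the start and ate the Total Western Diet (TWD), a rodent diet modelled on American nutrient intakes, for 6 weeks. For another 3 weeks, 5 mice stayed on the TWD (0% RPS, the controls), and 5 mice each received the TWD with 2, 5, or 10% raw potato starch (RPS), an uncooked starch that resists digestion and reaches the cecum. Every mouse, the controls included, had therefore been fed the TWD throughout. Only intact cecum tissue was used, so that a lower level of a transcript in each cell cannot be told apart from fewer cells that express it.

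An inflammasome is a protein complex that assembles in the cytosol when a sensor detects a microbial product or damage. The sensor binds the adaptor ASC, which Pycard encodes, or binds caspase-1 directly, and the active caspase-1 matures interleukin-1 beta and interleukin-18 and cleaves gasdermin D. The cleaved gasdermin forms pores in the plasma membrane, which releases the cytokines and can end in a lytic death called pyroptosis. In the noncanonical branch, the caspase encoded by mouse Casp4, also called caspase-11, binds bacterial lipopolysaccharide in the cytosol and cleaves gasdermin D itself. In the intestine these genes are active in the epithelium as well as in immune cells, and the gasdermin C genes are known from the epithelial response to type 2 cytokines.

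The main result concerned Casp4, whose expression doubled with 10% RPS, while the other 9 genes did not pass the thresholds at any dose. The plot of all members by mouse shows the values behind this.

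**Figure D1:**
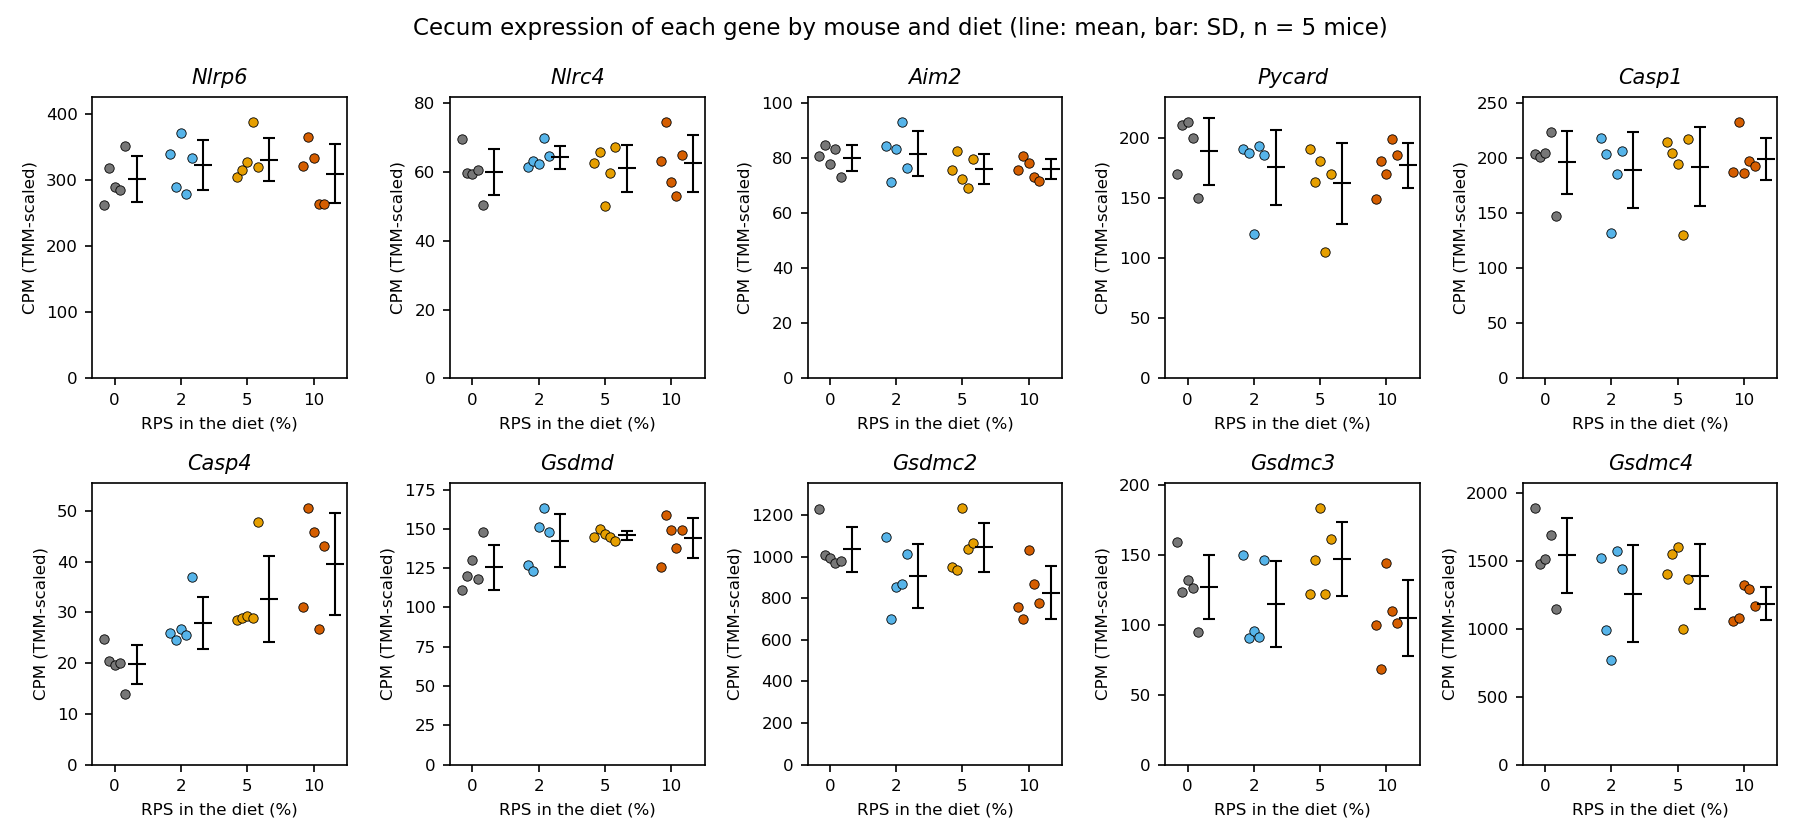
Expression of the 10 genes in counts scaled to library size (CPM, with TMM factors; vertical axes start at 0) in each of the 20 mice by percent RPS in the diet. Points are mice, horizontal marks are the mean, and bars are the SD of 5 mice. The 5 mice fed 10% RPS have 26.8 to 50.5 CPM of Casp4, all above the 13.9 to 24.7 CPM of the mice fed 0% RPS, whereas the diets overlap in the other panels.

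Total counts per mouse lay between 14967798 and 42687283. The lowest count of any member in a mouse was 461, for Casp4. In the smallest library, 3 counts corresponded to 0.2 CPM. A set of 3 libraries stood apart by the share of their counts on mitochondrial genes, which was 13.0% in mouse 5 on 0% RPS, 13.8% in mouse 3 on 2% RPS, and 15.4% in mouse 4 on 5% RPS, against 9.0 to 11.5% in the other 17. Results that rest on them are given with and without them. Markers of the tissue's cells were present in every mouse. The summed CPM of 10 epithelial markers was 15635 to 22766 and that of 7 goblet cell markers 5860 to 11583. Smooth muscle markers had 2441 to 9680 CPM in 6 genes, and B cell markers, which varied most between mice, had 4.21 to 399 CPM in 8 genes.

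Per length of their exons, the members spanned a wide range of levels in mice fed 0% RPS. Gsdmc4 was highest with 739 ± 132 CPM per kb (SD, n = 5), followed by Gsdmc2 with 447 ± 47.2 (SD, n = 5), and the ranges of these genes did not overlap with each other or with the next. Then came Casp1 with 62.6 CPM per kb, Nlrp6 with 59.3, Gsdmc3 with 54.5, Pycard with 44.6, and Gsdmd with 41.8, each of which overlapped with its neighbour in the order. Nlrc4 with 12.4 and Aim2 with 12.2 CPM per kb were alike within their spread. Casp4 was lowest with 3.76 ± 0.737 CPM per kb (SD, n = 5), and its range did not reach that of Aim2. Casp4, the member that changed, was therefore the member with the lowest level. Its level was still the lowest with 10% RPS, at 7.52 ± 1.92 CPM per kb (SD, n = 5). Per length of the longest transcript in place of all exons, Aim2 had 23.0 and Nlrc4 12.6 CPM per kb, so that these sensors changed places, as did Pycard and Gsdmd, while Casp4 stayed lowest with 5.92.

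Among the sensors, Nlrp6 (ENSMUSG00000038745, chromosome 7 of GRCm39, 140500815 to 140509105, plus strand) is a NOD-like receptor known from the intestinal epithelium. Its level was 301 ± 34.4 CPM (SD, n = 5) in the controls and 310 ± 45.0 CPM (SD, n = 5) at 10% RPS, and all diets overlapped. The log2 fold change was 0.04 (SE 0.11, edgeR adjusted p = 0.880). Nlrc4 (ENSMUSG00000039193, chromosome 17, 74732433 to 74766165, minus strand), which responds with NAIP proteins to bacterial flagellin and secretion systems, had 60.0 ± 6.79 CPM (SD, n = 5) in the controls and 62.5 ± 8.23 CPM (SD, n = 5) at 10% RPS. Nlrc4 overlaps Slc30a6 on the other strand, and whether the counts used strand is not given in the sources used here. Aim2 (ENSMUSG00000037860, chromosome 1, 173178445 to 173293930, plus strand) binds DNA in the cytosol and overlaps Cadm3 on the other strand. It varied least of all members, from 68.9 to 92.9 CPM over the 20 mice, with 79.9 ± 4.59 CPM (SD, n = 5) in the controls and 75.8 ± 3.70 CPM (SD, n = 5) at 10% RPS. For these sensors the log2 fold changes with 2, 5, and 10% RPS lay between -0.08 and 0.14.

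Pycard (ENSMUSG00000030793, chromosome 7, 127588558 to 127593039, minus strand) encodes the adaptor that links several sensors to caspase-1 and overlaps Gm45205 on the other strand. The mice fed 0% RPS had 170, 211, 213, 200, and 150 CPM, and those fed 2% RPS had 191, 187, 120, 193, and 186 CPM. With 5% RPS the values were 191, 163, 181, 105, and 170 CPM, and with 10% RPS they were 149, 181, 170, 199, and 186 CPM. In each of the first 3 diets the lowest mouse was the one with the high mitochondrial share, and the diets overlapped. The log2 fold change with 10% RPS was -0.09 (SE 0.15, edgeR adjusted p = 0.780) and became -0.15 (adjusted p = 0.228) without the 3 libraries.

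Casp1 (ENSMUSG00000025888, chromosome 9, 5298508 to 5307290, plus strand) and Casp4 (ENSMUSG00000033538, chromosome 9, 5308828 to 5336783, plus strand) are neighbours, with Casp4 downstream of Casp1 on the same strand. Their coding sequences were 65.4% identical over 1085 aligned bases, and no stretch of 50 bases of their transcripts was shared with another gene, so reads of this length can be assigned to each. To show where transcription of the caspase that changed begins, and of its neighbour, the 250 bases before their RefSeq starts on GRCm38.p6 are printed. The capitals mark matches to the NF-kB consensus, a binding motif of a factor that inflammatory signals activate. Casp4 has a further RefSeq start a few bases downstream, and its window holds the same matches.
Casp1, chr9:5298267-5298516, plus strand: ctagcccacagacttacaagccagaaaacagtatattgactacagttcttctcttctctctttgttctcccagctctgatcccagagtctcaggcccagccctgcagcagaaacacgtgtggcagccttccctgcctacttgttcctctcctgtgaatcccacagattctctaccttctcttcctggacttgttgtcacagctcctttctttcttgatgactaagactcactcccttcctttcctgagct
Casp4, chr9:5308599-5308848, plus strand: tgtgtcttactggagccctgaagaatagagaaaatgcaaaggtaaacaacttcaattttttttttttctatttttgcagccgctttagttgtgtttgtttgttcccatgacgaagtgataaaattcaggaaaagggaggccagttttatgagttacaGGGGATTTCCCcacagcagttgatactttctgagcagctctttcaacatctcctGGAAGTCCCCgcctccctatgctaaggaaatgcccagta

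Both strands were searched for the NF-kB consensus, for TTCNNNGAA and TTCNNNNGAA, the spaced sites of STAT factors, and for GAAANNGAAA, the core of the interferon-stimulated response element. Of the 32851 RefSeq promoter windows of this length, 7.25% held the NF-kB consensus, 7.02% the first and 5.85% the second STAT site, and 2.98% the interferon element. The window of Casp4 held 3 overlapping or separate NF-kB positions, at 93, 92, and 39 bases before the start, of which the first pair overlap in 1 run of capitals and the middle one reads the same motif on both strands. None of the 4 motifs occurred in the windows of Casp1, Aim2, Pycard, Nlrp6, Gsdmc3, or Nlrc4, which says only that these letters are not in these windows. Gsdmd, Gsdmc2, and Gsdmc4 were not matched to an entry. The matches are a description of the sequence and were not set against the expression values.

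Casp1, whose product matures interleukin-1 beta and interleukin-18, had 204, 201, 205, 224, and 148 CPM in the mice fed 0% RPS. With 2% RPS the values were 219, 204, 132, 186, and 207 CPM, with 5% RPS 215, 205, 195, 130, and 218 CPM, and with 10% RPS 188, 233, 187, 198, and 193 CPM. The diets overlapped, and the lowest mouse with 0, 2, and 5% RPS was again the one with the high mitochondrial share. The log2 fold change with 10% RPS was 0.02 (SE 0.14, edgeR adjusted p = 0.951) and it was -0.05 (adjusted p = 0.682) without the 3 libraries.

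Casp4, the sensor of cytosolic lipopolysaccharide, had 24.7, 20.5, 19.7, 20.1, and 13.9 CPM in the mice fed 0% RPS. The mice fed 2% RPS had 25.9, 24.5, 26.8, 25.5, and 37.0 CPM, and those fed 5% RPS had 28.4, 28.8, 29.2, 28.9, and 47.9 CPM. With 10% RPS the values were 31.1, 50.5, 45.8, 26.8, and 43.1 CPM. Every mouse fed 5 or 10% RPS was above every mouse fed 0% RPS, as for 1.53 and 1.68% of all genes, whereas with 2% RPS 1 mouse, at 24.5 CPM, was below the highest control. In 4 of the 5 mice fed 5% RPS the values were within 28.4 to 29.2 CPM, and the mice fed 10% RPS spread from 26.8 to 50.5 CPM, so that the 5 and 10% diets overlapped. The means were 19.8 ± 3.87, 27.9 ± 5.13, 32.7 ± 8.53, and 39.5 ± 10.1 CPM (SD, n = 5) with 0, 2, 5, and 10% RPS.

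With 10% RPS the expression of Casp4 was 2.0-fold that of the controls, a log2 fold change of 1.0 (SE 0.19, edgeR adjusted p = 0.0238), which was past both thresholds (adjusted p of at most 0.05 and a fold change of at least 1.5). At 5% RPS it was 0.72 on the log2 scale (SE 0.19, edgeR adjusted p = 0.0857), and with 2% RPS it was 0.50 (SE 0.19, edgeR adjusted p = 0.815), and neither passed. The slope over the percentage of RPS was 0.090 on the log2 scale per percent (SE 0.019, edgeR adjusted p = 0.0333) and passed. A test of any difference among the 4 diets gave an adjusted p of 0.0939. These comparisons share the 5 mice fed 0% RPS and are not independent of each other. With DESeq2 in place of edgeR, the adjusted p was 0.000126 with 10% RPS and 0.0167 with 5% RPS.

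The call with 10% RPS depended on single mice. It was lost without mouse 3 on 10% RPS (log2 fold change 0.95, adjusted p = 0.081) and without mouse 2 on 10% RPS (0.89, adjusted p = 0.050, above the threshold before rounding), and it held in the other 18 of the 20 fits that each left out a mouse, with log2 fold changes of 0.89 to 1.12 over all 20. The slope passed in 13 of these 20 fits, with adjusted p-values of 0.00637 to 0.0967. It was lost without mouse 1, 3, 4, or 5 on 0% RPS and without mouse 1, 2, or 3 on 10% RPS. Without the 3 libraries with many mitochondrial counts, Casp4 still passed with 10% RPS (log2 fold change 0.91, adjusted p = 0.0269).

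Markers of other cells also had estimates that lay to one side beside Casp4. All 6 smooth muscle markers had a higher estimate with 10% RPS, of which Actg2, a smooth muscle actin, passed the thresholds in edgeR, and DESeq2 called Actg2 and Cnn1. With 5% RPS all 6 were also higher in estimate, edgeR called Actg2, and DESeq2 called Actg2, Cnn1, Des, and Tagln. Their summed level was 2441 to 5668 CPM with 0% RPS, 4154 to 9680 CPM with 5% RPS, and 3993 to 6694 CPM with 10% RPS. With these markers as a covariate, an alternative added after the data were seen, the log2 fold change of Casp4 was 0.84 (adjusted p = 0.139), and 0.0% of all genes passed, against 1.04% without the covariate. All 7 goblet cell markers had a lower estimate, of which Zg16 passed in both tools, with 8389 to 11426 CPM against 6740 to 8132 CPM. All 9 macrophage markers tested were higher in estimate, at 126 to 287 CPM against 176 to 320 CPM, but 0 of them passed in edgeR or DESeq2 and 1 had an unadjusted p under 0.05. All 8 B cell markers had a higher estimate with 10% RPS, with a median log2 fold change of 2.04 and a summed level of 6.43 to 253 CPM (median 24.1) with 0% RPS and 17.7 to 361 CPM (median 291) with 10% RPS. The mice of these diets overlapped, and 0 of these markers passed in edgeR or DESeq2 and 0 had an unadjusted p under 0.05. With B cell markers as a covariate Casp4 had a log2 fold change of 1.07 (adjusted p = 0.0228), and with epithelial markers 1.0 (adjusted p = 0.0346). The part of macrophages and goblet cells in the change of Casp4 was not tested.

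Casp1 and Casp4 were also set against each other within each mouse. Their ratio in CPM was 10.1 ± 1.12 (SD, n = 5) with 0% RPS, 6.92 ± 1.61 (SD, n = 5) with 2% RPS, 6.08 ± 1.46 (SD, n = 5) with 5% RPS, and 5.32 ± 1.38 (SD, n = 5) with 10% RPS. The controls had ratios of 8.24 to 11.1 and the mice fed 10% RPS of 4.07 to 7.41, with no overlap. The ratio is given as a description, since its change follows from that of Casp4.

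**Figure D2:**
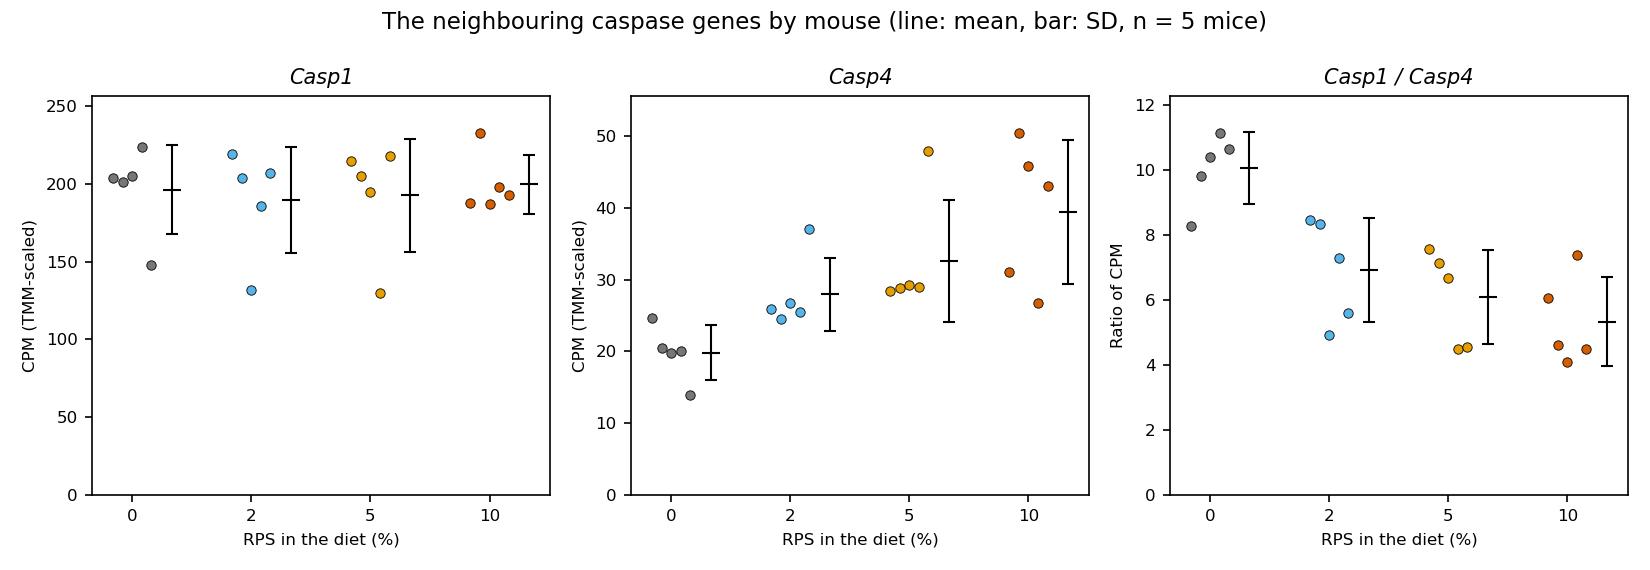
Casp1 and Casp4 in CPM (scaled by TMM) and the ratio of Casp1 to Casp4 in each mouse by percent RPS, with the mean (horizontal mark) and SD (bar) of 5 mice; the axes start at 0. Casp1 stays near 190 to 200 CPM on average, Casp4 has means of 19.8 to 39.5 CPM, and the mean ratio is 10.1 with 0% RPS and 5.32 with 10% RPS.

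Gsdmd (ENSMUSG00000022575, chromosome 15, 75733974 to 75739257, plus strand) encodes the pore protein that both caspases cleave. The mice fed 0% RPS had 111, 120, 130, 118, and 148 CPM, and the mice fed 10% RPS had 126, 159, 149, 138, and 149 CPM. With 5% RPS the values were 145, 150, 147, 145, and 142 CPM, a narrow range, and with 2% RPS they were 127, 123, 151, 163, and 148 CPM. The mouse fed 0% RPS with the high mitochondrial share had the highest of the control values, 148 CPM. The mice fed 2, 5, and 10% RPS each overlapped with the controls. The log2 fold changes were 0.18, 0.22, and 0.20 (SE 0.09 for each) with 2, 5, and 10% RPS, and the edgeR adjusted p-values were 0.849, 0.271, and 0.223. Without the 3 libraries with many mitochondrial counts the log2 fold change with 10% RPS was 0.28 (adjusted p = 0.055).

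Gsdmc2 (ENSMUSG00000056293, 63696195 to 63717026), Gsdmc3 (ENSMUSG00000055827, 63729573 to 63750407), and Gsdmc4 (ENSMUSG00000055748, 63763113 to 63784146) lie side by side on the minus strand of chromosome 15. They are tandem copies of a gasdermin gene. Their coding sequences each had 1440 bases, and they were 97.1% identical between Gsdmc2 and Gsdmc3 and 93.8% identical between each of these and Gsdmc4. The first 120 coding bases are shown because they tell how little separates the copies for a short read, with capitals at the 2 positions at which the 3 genes are not all the same (GRCm39, minus strand, within a single exon).
Gsdmc2, chr15:63707673-63707792: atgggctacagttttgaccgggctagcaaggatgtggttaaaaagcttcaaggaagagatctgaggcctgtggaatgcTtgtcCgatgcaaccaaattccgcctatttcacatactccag
Gsdmc3, chr15:63741027-63741146: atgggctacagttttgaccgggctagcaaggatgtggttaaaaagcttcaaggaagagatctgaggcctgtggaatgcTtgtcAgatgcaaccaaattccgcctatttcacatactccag
Gsdmc4, chr15:63774660-63774779: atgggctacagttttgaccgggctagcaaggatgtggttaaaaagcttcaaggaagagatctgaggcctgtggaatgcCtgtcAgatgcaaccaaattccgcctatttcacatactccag

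Over whole transcripts, 51.3% of the 50-base windows of Gsdmc2, 46.0% of those of Gsdmc3, and 39.0% of those of Gsdmc4 also occurred in another gene of this family. How the counting treated reads that fit several genes is not given in the sources used here, so the separate values of these genes are less certain than those of the other members. Of the remaining members, Nlrc4 shared 1.13%, Aim2 0.576%, and Gsdmd 0.0834% of its windows with another gene.

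Gsdmc4 had 1887, 1474, 1513, 1691, and 1147 CPM in the mice fed 0% RPS and 1060, 1077, 1324, 1293, and 1165 CPM in those fed 10% RPS. With 2% RPS the values were 1520, 992, 767, 1571, and 1438 CPM, and with 5% RPS 1404, 1551, 1606, 999, and 1369 CPM. All mice fed 10% RPS were below 4 of the 5 controls, and the remaining control, at 1147 CPM, was the one with the high mitochondrial share. The log2 fold change with 10% RPS was -0.38 (SE 0.18, edgeR adjusted p = 0.240). Without the 3 libraries it was -0.46 (adjusted p = 0.0364), which still missed the fold change threshold.

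Gsdmc2 had 1229, 1006, 992, 970, and 980 CPM with 0% RPS and 756, 702.2, 1030, 867, and 776 CPM with 10% RPS. All but 1 of the mice fed 10% RPS were below the lowest control. The log2 fold change was -0.33 (SE 0.12, edgeR adjusted p = 0.155). With 2% RPS the values of Gsdmc2 were 1096, 701, 852, 867, and 1014 CPM, and with 5% RPS 951, 937, 1232, 1039, and 1065 CPM, with log2 fold changes of -0.19 and 0.01.

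Gsdmc3 had a lower level than Gsdmc2, with a ratio of Gsdmc2 to Gsdmc3 in CPM of 8.29 ± 1.17 (SD, n = 5) in the controls. It had 94.7 to 159 CPM with 0% RPS and 68.0 to 144 CPM with 10% RPS, and the diets overlapped. Its log2 fold change with 10% RPS was -0.28 (SE 0.19, edgeR adjusted p = 0.436), and with 5% RPS it was 0.21 (SE 0.19, edgeR adjusted p = 0.716). The 3 gasdermin C genes together had 2704 ± 381 CPM (SD, n = 5) with 0% RPS, 2278 ± 491 (SD, n = 5) with 2%, 2577 ± 310 (SD, n = 5) with 5%, and 2115 ± 268 (SD, n = 5) with 10% RPS. Such a sum does not depend on how shared reads were divided among the 3 genes. It would not restore reads that the counting left out. A further gasdermin C gene of the count table, which shared 6.67 to 12.5% of their windows, is not in the sum. The sums overlapped, with 2221 to 3275 CPM in the controls and 1847 to 2498 CPM in the mice fed 10% RPS.

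**Figure D3:**
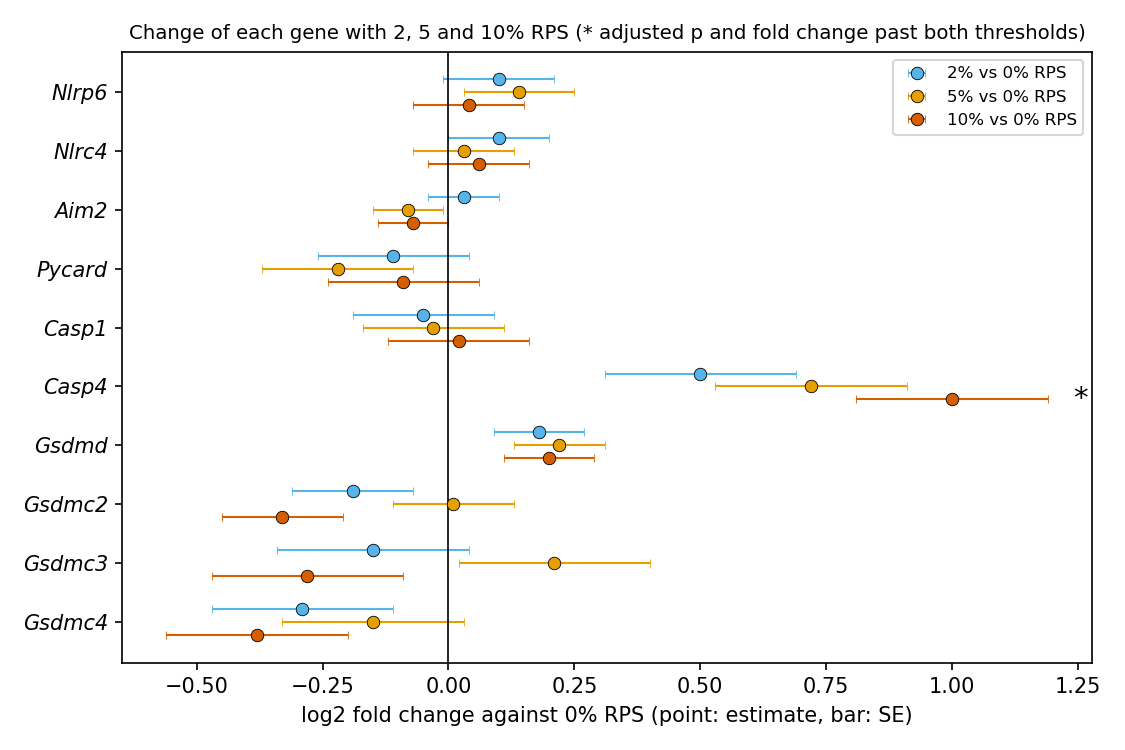
Log2 fold change (horizontal axis) of each gene with 2, 5, and 10% RPS against 0% RPS from edgeR; points are estimates from 5 mice per diet and bars are 1 SE. Casp4 with 10% RPS, at 1.0, is the value past both thresholds (asterisk), and with 10% RPS the estimates of the other 9 genes lie between -0.38 and 0.20.

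Counted over the members, 1 of 10 rose past the thresholds with 10% RPS, against 0.547% of all genes tested, and 0 of 10 fell past them, against 0.495% (edgeR; DESeq2 gave the same counts, with 1.99% of the genes in its fit called in either direction). The members were chosen with earlier results of these data known, so these counts are a description and not a test of the group. At an unadjusted p under 0.05 there were 4 members (Casp4, Gsdmd, Gsdmc2, and Gsdmc4), against 19.5% of all genes. Casp4 was the member with every mouse fed 10% RPS above every mouse fed 0% RPS, which 1.68% of genes showed, and no member had every mouse below, which 3.2% of genes showed. The estimates were higher for 5 members and lower for 5, and their median was -0.03 beside 0.004 over all genes.

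With 5% RPS, 0 members passed in edgeR, where 0.195% of all genes passed, and 2 had an unadjusted p under 0.05, against 13.3% of all genes. DESeq2 called 1 member (Casp4) and 1.3% of its genes. The members other than Casp4 had log2 fold changes of -0.22 to 0.22 with 5% RPS. With 2% RPS, 0 members passed in either tool, where 0.0% of all genes passed in edgeR and 0.027% in DESeq2. Of the members 2 had an unadjusted p under 0.05, against 5.77% of all genes, and log2 fold changes other than that of Casp4 were -0.29 to 0.18. The slope passed for 1 member, against 1.11% of all genes, and any difference among the diets for 0 members, against 0.0912% of all genes. For the latter test 2 members had an unadjusted p under 0.05, against 11.1% of all genes, and DESeq2 called 1, again Casp4, and 2.55% of its genes.

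Levels of the members were also compared across the 20 mice. Of 45 pairs, 7 had a Pearson correlation of log2 CPM with a Benjamini-Hochberg adjusted permutation p of at most 0.05, and 1 had such a Spearman correlation. Gsdmc2 and Gsdmc3 had the closest relation, with r = 0.87 (two-sided permutation p = 1e-05, the smallest that 100000 permutations can give, adjusted p = 0.00045) and rho = 0.86 (permutation p = 2e-05, adjusted p = 0.0009). It remained without the pair of mice farthest from the median of Gsdmc2 (r = 0.82) and within diets (r = 0.85). These genes share reads, and the part of shared reads in r was not tested. Gsdmc4 was related to Gsdmc2 with r = 0.63 and rho = 0.54 (permutation p = 0.00293 and 0.0152, adjusted p = 0.0241 and 0.184) and to Gsdmc3 with r = 0.64 and rho = 0.64 (permutation p = 0.00254 and 0.00286, adjusted p = 0.0241 and 0.0643). Without the pair of mice farthest from the median of Gsdmc2 or of Gsdmc3 these r were 0.55 and 0.62. Within diets they were 0.53 and 0.62, and neither passed the threshold (permutation test, adjusted p = 0.164 and 0.0608). Without the 3 libraries with many mitochondrial counts, r was 0.84 for Gsdmc4 with Gsdmc2 (permutation test, adjusted p = 0.000225), 0.69 for Gsdmc4 with Gsdmc3 (adjusted p = 0.0381), and 0.92 for Gsdmc2 with Gsdmc3 (adjusted p = 0.000225).

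**Figure D4:**
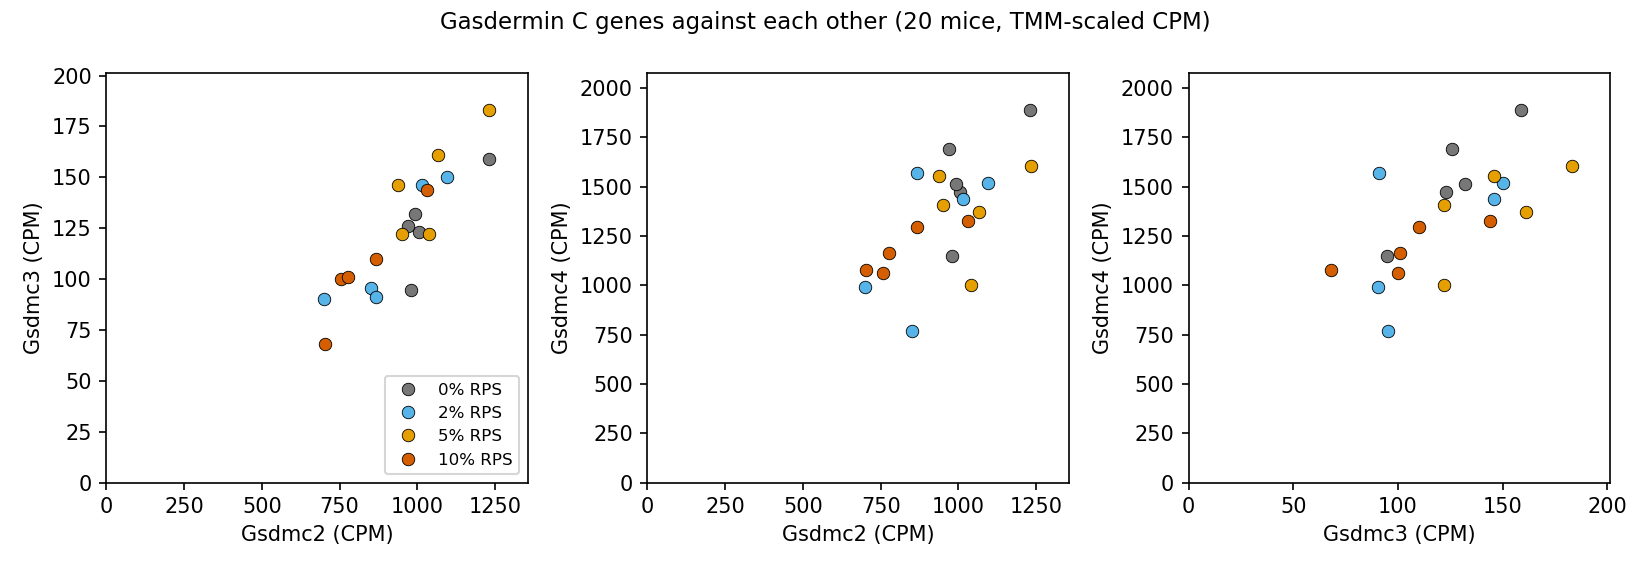
Expression of Gsdmc2, Gsdmc3, and Gsdmc4 against each other in CPM (scaled by TMM); each point is 1 of 20 mice, colored by percent RPS, and the axes start at 0. Gsdmc2 and Gsdmc3 lie close to a line (r = 0.87 on log2 CPM), and Gsdmc4 is scattered more widely against both (r = 0.63 and 0.64, and 0.84 and 0.69 without the 3 libraries with many mitochondrial counts).

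Casp1 and Pycard had r = 0.83 (permutation p = 0.0001, adjusted p = 0.00225) but rho = 0.46 (permutation p = 0.0434, adjusted p = 0.253). The relation rested on the 3 libraries with many mitochondrial counts, without which r was 0.23. Casp1 had 130 to 148 CPM in these libraries and 186 to 233 CPM in the other 17, with no overlap, and Pycard had 105 to 150 CPM against 149 to 213 CPM. Gsdmc4 with Pycard (r = 0.63, rho = 0.43, permutation p = 0.00321 and 0.0583, adjusted p = 0.0241 and 0.292) and Gsdmc4 with Casp1 (r = 0.61, rho = 0.39, permutation p = 0.00467 and 0.0921, adjusted p = 0.030 and 0.369) fell to r = 0.23 and 0.06 without these libraries. Nlrp6 went the other way, with 352 to 388 CPM in the 3 libraries and 262 to 365 CPM in the others, and its r with Pycard was -0.64 (rho = -0.54, permutation p = 0.00188 and 0.0163, adjusted p = 0.0241 and 0.184), which was -0.26 without them. Without the pair of mice farthest from the median of the gene named first, r was 0.49 for Casp1 with Pycard, 0.57 for Gsdmc4 with Pycard, 0.23 for Casp1 with Gsdmc4, and -0.60 for Nlrp6 with Pycard. Within diets, with these libraries included, r was 0.87, 0.71, 0.70, and -0.60 for the same pairs in the order Casp1 with Pycard, Gsdmc4 with Pycard, Casp1 with Gsdmc4, and Nlrp6 with Pycard. The adjusted p-values within diets were 0.0508 for Casp1 with Pycard and 0.0608 for each of the others (permutation test). Casp4 had no pair among the 7.

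**Figure D5:**
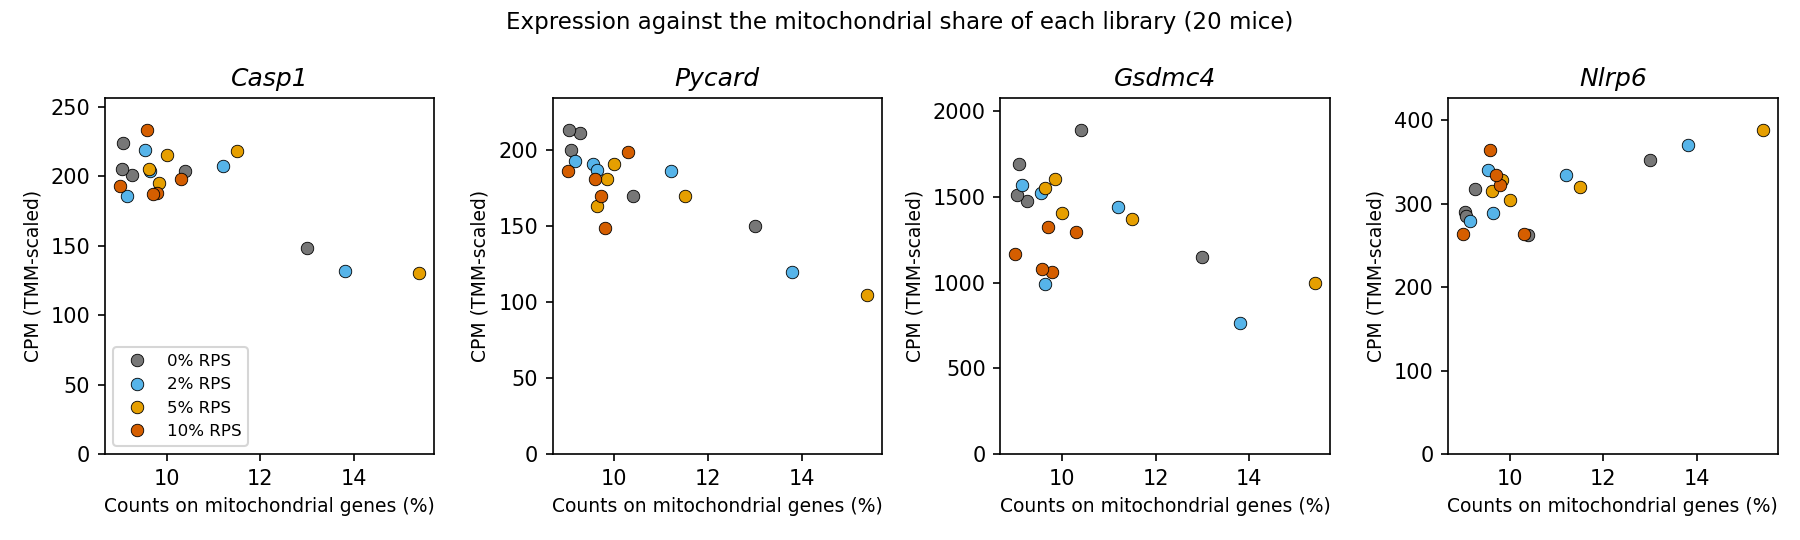
Expression of Casp1, Pycard, Gsdmc4, and Nlrp6 (CPM scaled by TMM, axes start at 0) against the percent of counts on mitochondrial genes in each of 20 libraries, colored by percent RPS. The 3 libraries at 13.0 to 15.4% have 130 to 148 CPM of Casp1 against 186 to 233 CPM in the other 17, and 352 to 388 CPM of Nlrp6.

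For each member, the genes with the most similar variation were found by the Pearson correlation of deviations of log2 CPM from the diet means over the 20 mice, which is given as a description. For Casp4 they were Slc13a2, a carboxylate transporter (r = 0.85), Duoxa2, the maturation factor of a hydrogen peroxide producing oxidase (r = 0.84), and Mep1b, a subunit of the protease meprin (r = 0.84). For Casp1 they were Sult1d1 and Tm9sf2 (r = 0.98 for each) and Ugt2b5 (r = 0.97), and for Pycard Slc25a3, Rpl7, and Hprt1 (r = 0.96 for each). These points include the 3 libraries that stood apart. Gsdmc4 was most like Npc2 and Zfand5 (r = 0.91 for each) and Erp44 (r = 0.90). Besides each other, Gsdmc2 was most like Prlr (r = 0.76) and Agbl2 (r = 0.74), and Gsdmc3 most like Hdhd5 and Nrep (r = 0.79 for each). Gsdmd was most like Tradd (r = 0.86), S100a13 (r = 0.85), and Neu1 (r = 0.83). For the sensors the leading genes were Hivep1 for Nlrp6 (r = 0.93, then Nipal3 with 0.88 and Kpna2 with 0.87), Ccdc93 for Nlrc4 (r = 0.91, then Ptk6 with 0.87 and Cd38 with 0.85), and Dennd2d for Aim2 (r = 0.86, then Trim6 with 0.85 and Ighv1-76 with 0.76).

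The wider pathway was examined with 6 lists of 64 genes, of which 58 were tested. With 10% RPS, 0 of the 58 passed in edgeR, and 12 had an unadjusted p under 0.05, against 19.5% of all genes. DESeq2 called 1 (Irf7), against 1.99% of its genes. With 5% RPS, 0 passed in edgeR and 11 had an unadjusted p under 0.05, against 13.3% of all genes, and DESeq2 called Il1rn and Irf7, against 1.3% of its genes. With 2% RPS 0 passed in either tool and 2 had an unadjusted p under 0.05, against 5.77% of all genes. For the slope 0 passed in either tool, against 1.11% of all genes in edgeR and 3.81% in DESeq2, and 11 had an unadjusted p under 0.05, against 18.8% of all genes. The median log2 fold change with 10% RPS was 0.13 over the 58 genes, beside 0.004 over all genes tested.

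Other sensors had 8 higher and 1 lower estimate with 10% RPS among 9 tested, the largest of which were Mefv (0.47, SE 0.40, adjusted p = 0.547), the pyrin gene, and Nlrp10 (0.40, SE 0.57, adjusted p = 0.740), both at under 3 CPM in every mouse fed 0 or 10% RPS. Other caspases had 4 higher and 3 lower estimates, led by Casp12 (0.50, SE 0.20, adjusted p = 0.175), another member of the inflammatory caspase group. Casp12 had 5.54 to 8.18 CPM with 0% RPS and 8.10 to 11.2 CPM with 10% RPS. The other gasdermins were led by Gsdme (0.43, SE 0.19, adjusted p = 0.216), with 73.9 to 110 CPM against 106 to 158 CPM, and Gsdma (-0.18, SE 0.25, adjusted p = 0.729).

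Of the interleukin-1 family and its receptors, 7 estimates were higher and 3 lower with 10% RPS. Il1rn, which encodes the antagonist of the interleukin-1 receptor, had 36.2 ± 12.9 CPM (SD, n = 5) in the controls, a mean of 6.25 CPM at 5% RPS, and 12.3 ± 7.79 CPM (SD, n = 5) at 10% RPS. Its log2 fold change was -2.52 with 5% RPS (edgeR adjusted p = 0.0597; DESeq2 adjusted p = 0.00101) and -1.56 with 10% RPS (edgeR adjusted p = 0.124; DESeq2 adjusted p = 0.0521), and its values did not overlap between 0 and 10% RPS (24.1 to 52.2 CPM against 5.37 to 23.2 CPM), as for 3.2% of all genes in this direction. Il18r1, a chain of the interleukin-18 receptor, had a log2 fold change of 0.59 with 10% RPS (SE 0.26, edgeR adjusted p = 0.232).

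Among the co-factors and modulators 8 estimates were higher and 10 lower, led by Zbp1, a sensor of nucleic acids (0.79, SE 0.38, adjusted p = 0.262), and Pstpip1, a partner of pyrin (0.73, SE 0.44, adjusted p = 0.367). Among the regulators 9 were higher and 2 lower. Irf7, an interferon regulatory factor, had 111 ± 29.0 CPM (SD, n = 5) in the controls and 192 ± 68.3 CPM (SD, n = 5) at 10% RPS, a log2 fold change of 0.79 (SE 0.27, edgeR adjusted p = 0.123; DESeq2 adjusted p = 0.0431). At 5% RPS the mean of Irf7 was 230.0 ± 62.0 CPM (SD, n = 5), a log2 fold change of 1.05 (SE 0.27, edgeR adjusted p = 0.087; DESeq2 adjusted p = 0.00791). DESeq2 also called Irf7 and Il1rn for any difference among the diets (adjusted p = 0.017 and 0.00404). For Irf8, of the same family, the estimate was 0.55 on the log2 scale (SE 0.21, edgeR adjusted p = 0.169).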

How the data were processed

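The authors made stranded poly(A) libraries of cecum RNA from 20 mice, counted single-end reads per gene on GRCm39 with the CLC Genomics Workbench, and deposited these raw counts. The annotation release, strand setting, and treatment of reads that fit several genes are not given in the sources used here. Groups came from the treatment labels, and mice were numbered 1 to 5 within a diet. The proximal and distal colon were not analysed here. The members and lists were chosen with earlier results of these data known.

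Of 19887 genes, 19827 were matched to GENCODE mouse release symbols, and 15348 passed edgeR's filterByExpr (minimum count 10, minimum total 15). Counts were scaled by TMM and fitted by edgeR 4.0.16 (quasi-likelihood, robust, all diets in 1 fit), in R 4.3.3. Tests were two-sided, and p-values were adjusted over all genes tested by Benjamini-Hochberg. A gene was called at an adjusted p of at most 0.05 and a fold change of at least 1.5, with no fold change threshold for the slope or for any difference among the 4 diets. CPM are TMM-scaled, log2 CPM has a prior count of 2, and levels per kb use merged exon lengths. SE come from the fold change and F statistic. Correlations used 100000 permutations over mice.

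Pathway genes named are those called, and the 2 of each list with the largest change with 10% RPS, except 1 gene that is not reported here. Markers are named where edgeR called them, or DESeq2 with 10% RPS or, for smooth muscle, 5% RPS. The alternatives included DESeq2 1.42.0, 1 surrogate variable (sva 3.50.0), other filters and scalings, marker covariates, and each mouse left out. Covariates for the mitochondrial share and smooth muscle, and leaving out 3 libraries, were added after seeing the data. Mice on a diet differed by more than sampling noise in all 40 pairs (chi-square of 12.3 to 122 per degree of freedom). The limit of 3 counts covers counting error only. Promoter sequences are from RefSeq (GRCm38.p6), and Python 3.11.15 was used.

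Listed genes under the count minimum were Nlrp1a and Gsdma2 of the pathway, and Itgam, S100a8, S100a9, Cxcr2, Mpo, Mzb1, and Il25 of the markers. Nlrp12, Casp14, Gsdma3, and Irgb10 were not analysed here. With 10% RPS, epithelial markers had 1 gene higher past the thresholds (Slc26a3) of 10 in edgeR. Their estimates were higher for 2 and lower for 8, with a median log2 fold change of -0.14. An unadjusted p under 0.05 was reached by 4 of them, against 19.5% of all genes. Of plasma cell (5), B cell (8), T cell (8), neutrophil (2), and tuft cell (5) markers, 0 passed in edgeR. At an unadjusted p under 0.05 there were 1, 0, 0, 1, and 1 of these. DESeq2 called 1 neutrophil marker (Ly6g), which was lower, and 0 of the plasma cell, B cell, T cell, and tuft cell markers. Ly6g had 0 to 502 counts per mouse and a log2 fold change of -2.74 in edgeR. Of the 2 neutrophil markers tested there, 1 had a higher and 1 a lower estimate.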

Additional observations from a re-analysis of the deposited data

Results flagged for a closer look

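Of the 40 combinations of a member and a diet, 7 had a mouse whose gap to the nearest of the other 4, divided by the range of the diet, was above Dixon's critical value of 0.71. Chance flags about 1 in 20 groups. What sets these mice apart was not tested.

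Casp4 had such a mouse in 2 diets. Mouse 5 on 2% RPS had 37.0 CPM, above the 24.5 to 26.8 CPM of the others, and mouse 5 on 5% RPS had 47.9 CPM, above 28.4 to 29.2 CPM. Their mitochondrial shares were 11.2 and 11.5%, the highest among the 17 libraries that did not stand apart.

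In the libraries with many mitochondrial counts, mouse 4 on 5% RPS had the lowest Casp1 of its diet at 130 CPM (others 195 to 218 CPM) and the highest Nlrp6 at 388 CPM (others 305 to 328 CPM). Mouse 3 on 2% RPS had the lowest Pycard at 120 CPM (others 186 to 193 CPM). Elsewhere, Casp1 was highest in mouse 2 on 10% RPS at 233 CPM (others 187 to 198 CPM), and Gsdmc2 was highest in mouse 1 on 0% RPS at 1229 CPM (others 970 to 1006 CPM).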

How the results depend on the processing

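No paired analysis was possible because no mouse number occurs in more than 1 diet. The counts of members past the thresholds were 1 with 10% RPS, 0 with 5% RPS, 1 for the slope, and 0 for any difference. DESeq2 gave 1 with 5% RPS and 1 for any difference. Smooth muscle markers as a covariate gave 0 with 10% RPS and 0 for the slope, and epithelial markers gave 0 for the slope. With each mouse left out, the count was 0 to 1 with 10% RPS, for the slope, and for any difference (1 without mouse 5 on 2% RPS or mouse 4 on 10% RPS). Casp4 kept its direction in all alternatives run. Of the 7 correlated pairs, 3 remained past the threshold without the 3 libraries with the most mitochondrial counts. Within diets 1 did, while the r of the other 6 kept their direction, at 0.53 to 0.87 and -0.60, with adjusted p-values of 0.0508 to 0.164 (permutation test).

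Of all genes tested, 1.04% passed with 10% RPS, 0.195% with 5%, 0.0% with 2% (0 genes in edgeR, with 886 at an unadjusted p under 0.05), 1.11% for the slope, and 0.0912% for any difference. With DESeq2 these shares were 1.99, 1.3, 0.027, 3.81, and 2.55%. With 1 surrogate variable, 0.345% passed with 5% RPS and 7.98% for the slope. B cell markers as a covariate gave 0.658, 0.43, and 0.58% with 10% RPS, 5% RPS, and for the slope, and epithelial markers 0.619, 0.0782, and 0.0521%. The mitochondrial share as a covariate gave 2.09, 0.43, and 4.91%, and 0.652% for any difference, and smooth muscle markers gave 0.0% for these 4 tests. Leaving out the 3 libraries gave 2.07, 0.00653, and 5.8%. A fit of only the diets compared gave 0.658% with 10% and 0.436% with 5% RPS, no fold change threshold gave 1.86% with 10% RPS, and at least 10 counts in every mouse 0.31% with 5% RPS. For the slope, the rank of the dose gave 3.51% and no filter on low counts 0.556%. With each mouse left out, the shares were 0.0907 to 2.23% with 10% RPS, 0.0 to 0.739% with 5% RPS, 0.0 to 4.37% for the slope, and 0.0194 to 0.667% for any difference. The cause of these changes in the shares was not tested.

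Some small estimates with 10% RPS changed sign. Pycard was 0.04 with 1 surrogate variable and 0.20 with smooth muscle markers, Casp1 -0.02 with the mitochondrial share and -0.05 without the 3 libraries, and Aim2 0.02 and Nlrp6 -0.15 with smooth muscle markers. With each mouse left out, Casp1 ranged from -0.05 to 0.08, Nlrc4 from -0.01 to 0.12, and Nlrp6 from -0.03 to 0.11. Members other than Casp4 passed in 0 of 297 alternative values with 10% RPS and 0 of 882 for the other doses and the slope.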
